A study of Rattus norvegicus with 6 samples.

Results

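A group of 10 genes of the YAP/TAZ-TEAD axis were followed in rat nucleus pulposus cells, which come from the soft inner part of the intervertebral disc. They are the coactivator genes Yap1 and Wwtr1 (which encodes TAZ), the DNA-binding partners Tead1, Tead3 and Tead4, and the responsive genes Ankrd1, Amotl2, Lats2, Ajuba and Axl. They were taken by gene symbol, whatever their level, and all 10 had a row among the 22573 gene rows used. RNA from nucleus pulposus cells of Sprague Dawley rats was sequenced as 3 control libraries and as 3 libraries labelled cyclic tensile strain. The strained cells were stretched on a Flexcell device to an elongation of 18% at a frequency of 0.2 Hz over 24 h. The study asked how such strain affects clock-related genes. The treatment text is the same for all 6 libraries, so the controls were taken as unstretched from their class label alone. No genotype, age or passage was given, nor whether the replicates are separate animals or cultures. The p-values therefore rest on a spread between libraries that may be technical.

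YAP and TAZ carry no DNA-binding domain of their own and act in the nucleus by binding TEAD factors. The Hippo kinases MST1/2 and LATS1/2 phosphorylate them, which holds them in the cytoplasm or leads to their degradation. Cell stretch, stiff substrates and actin tension are known to favour their nuclear entry, which messenger levels do not report. Several of their targets feed back on the pathway: LATS2 and AMOTL2 restrain YAP, whereas AJUBA binds and inhibits LATS kinases.

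Values were taken as FPKM, which correct fragment numbers for gene length and for library size, and levels are compared between genes on that basis. The annotation that set the gene lengths is not given, so ratios and shares between genes rest on lengths that could not be checked. Depth is unknown, and summed FPKM ran from 308780 to 347508 per library. The first principal component separated the groups, and on the second one strain replicate 3 was at 17.5, with its fellow strain libraries at -9.7 and -10.8. Of 14 nucleus pulposus markers fixed, 7 averaged at least 1 FPKM: Acan, Pax1, Foxf1, Sox9, Krt8, Cd24 and Car3. The defining markers Noto and Shh were listed at 0 in all 6 libraries, and T, Krt18 and Krt19 stayed under 0.2 FPKM, so the labelled cell type was only partly borne out by them. The summed nucleus pulposus marker level was 50.2 to 70.0 FPKM in controls and 85.7 to 90.1 FPKM under strain. Krt8, Pax1, Foxf1, Car3 and Sox9 were higher in every strain library. Groups did not overlap, in either direction, for 51.9% of all tested genes. Acan, the most abundant marker, averaged 31.1 and 38.6 FPKM with overlapping groups. Cd24 averaged lower under strain (5.06 and 4.04 FPKM), also with overlap. Col2a1 averaged 0.042 and 0.898 FPKM, and Car12 0.434 and 0.338 FPKM. Endothelial markers summed to 1.36 to 1.94 FPKM in controls and 0.945 to 1.08 FPKM under strain, with Cdh5 at 0. Flt1 carried that lower sum (means of 1.43 and 0.484 FPKM), whereas Pecam1 (0.069 and 0.269 FPKM) and Erg (0.022 and 0.080 FPKM) were higher under strain. The part of either in the results below was not tested.

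Neither coactivator gene was called under strain, and the responsive genes moved in different directions. Ankrd1 rose 3.12-fold and Ajuba 1.38-fold, while Lats2 fell 1.71-fold and Axl 1.49-fold. Of the 10 genes 9 passed the filter on low values (1 FPKM or more, averaged over all 6 libraries), and 4 of these 9 were called by limma at an adjusted p under 0.05. Among all 10180 tested genes 35.4% were called, 16.4% higher and 19.0% lower, so a share of 44.4% of 9 genes does not set this group apart. The median log2 fold change was -0.07 over the 9 genes and -0.01 over all tested genes. Under quantile, upper-quartile or median-ratio scaling 6 of the 9 were called, 4 higher and 2 lower, in place of 2 higher and 2 lower. Of all 10180 tested genes these scalings called 3849, 3828 and 3732, beside 3608 in the main fit. With control replicate 1 left out, 2 of the 9 were called, Lats2 and Axl, both lower. That fit called 2363 of all 10182 genes it tested. In the main fit 1672 of all genes were higher and 1936 lower. This balance turned to 2138 and 1711 with quantile normalization and to 2272 and 1556 with upper-quartile scaling. In bulk RNA, fewer cells of a type and less RNA per cell cannot be told apart.

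**Figure D1:**
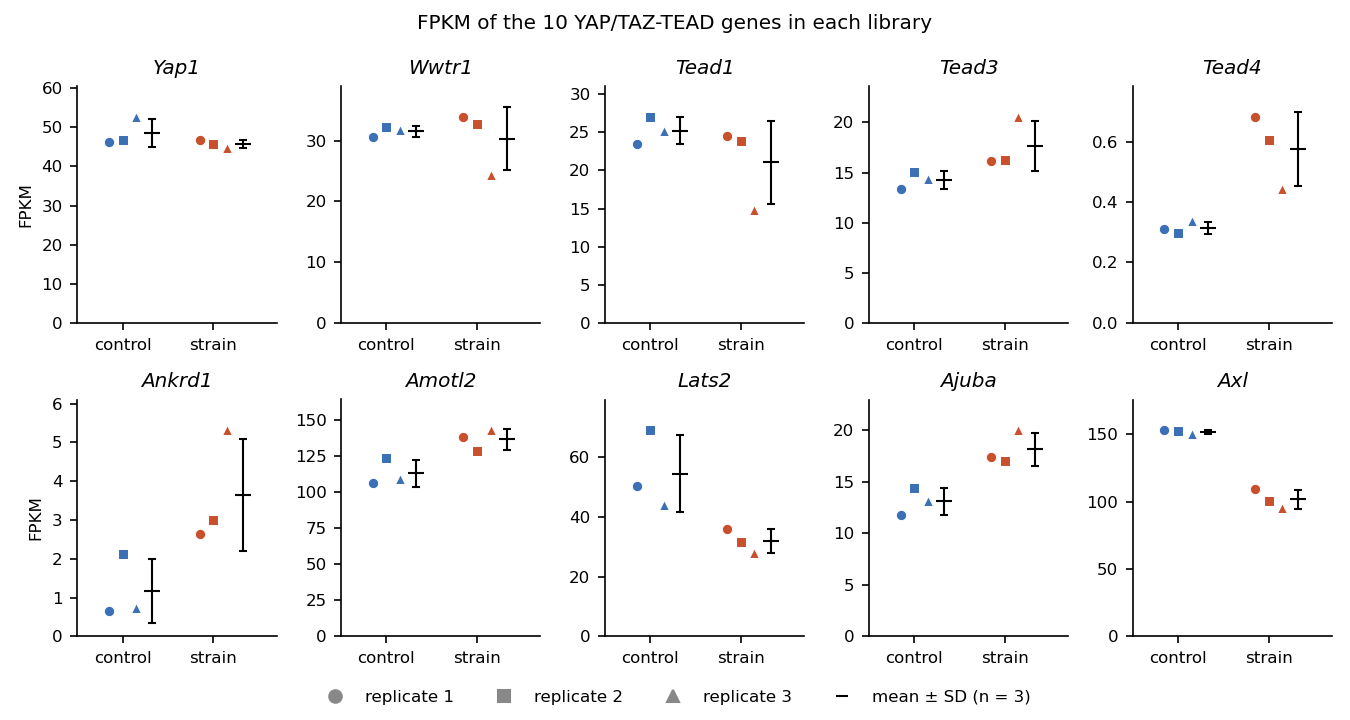
FPKM (vertical axes, each from 0) of the 10 genes in 3 control (blue) and 3 strain (orange) libraries, with replicates by symbol and the group mean ± SD as black bars (n = 3). Axl and Lats2 are lower in every strain library, Ankrd1 and Ajuba higher, and strain replicate 3 alone is low for Wwtr1 and Tead1.

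Yap1, the principal coactivator gene of the pathway, was at 46.2, 46.8 and 52.7 FPKM in control replicates 1 to 3. Under strain it was at 46.8, 45.8 and 44.7 FPKM. The groups overlapped, and control replicate 3 was the one library above the others. Means were 48.6 ± 3.58 and 45.7 ± 1.08 FPKM (SD, n = 3), a log2 difference of -0.08 ± 0.09 (SE). The 95% interval of that difference was -0.28 to 0.11 (limma, adjusted p = 0.49), and its sign turned to 0.01 with quantile normalization.

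Wwtr1, which encodes the paralogous coactivator TAZ, was at 30.5, 32.2 and 31.8 FPKM in controls. Strain replicates 1 and 2 were at 33.9 and 32.7 FPKM, above every control, and strain replicate 3 was at 24.3 FPKM, below every control. The mean log2 difference was -0.07 ± 0.12 (SE; interval -0.35 to 0.21; limma, adjusted p = 0.70). It was 0.08 without strain replicate 3 and 0.01 with upper-quartile scaling, so no direction can be given. Yap1 stood above Wwtr1 in all 6 libraries, with a ratio of 1.54 ± 0.11 in controls and 1.54 ± 0.26 under strain (SD, n = 3). The ratio was 1.83 in strain replicate 3 and 1.38 and 1.40 in the other strain libraries.

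The TEAD genes encode paralogous transcription factors with a shared TEA DNA-binding domain, and their mean differences had different signs. Tead1, the most abundant of them in every library but strain replicate 3, was at 23.5, 27.0 and 25.1 FPKM in controls. Under strain it was at 24.6, 23.8 and 14.8 FPKM. Replicates 1 and 2 of the strain group lay within the control range and replicate 3 far below it. The log2 difference was -0.28 ± 0.17 (SE; interval -0.67 to 0.11; limma, adjusted p = 0.24), and the strain mean of 21.1 FPKM became 24.2 FPKM without strain replicate 3.

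Tead3 was at 13.3, 15.1 and 14.4 FPKM in controls and at 16.1, 16.2 and 20.5 FPKM under strain. Every strain library lay above every control, which was so for 51.9% of all tested genes in one direction or the other. Its log2 difference of 0.28 ± 0.11 (SE; interval 0.03 to 0.53) missed the threshold (limma, adjusted p = 0.078). It passed with quantile, upper-quartile and median-ratio scaling (limma, adjusted p = 0.023, 0.021 and 0.044; 0.021 to 0.22 over 15 alternatives).

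Tead4 stayed under the filter, at 0.3104, 0.297 and 0.336 FPKM in controls and 0.682, 0.606 and 0.442 FPKM under strain. The groups did not overlap at this low level, and no fold is given with both means under 1 FPKM. Fitted without a filter, its log2 difference was 0.26 ± 0.07 (SE; limma, adjusted p = 0.044), in a fit that called 23.3% of 16152 genes. Tead2, the remaining family member, rose from 1.44 ± 0.34 to 2.72 ± 0.53 FPKM (SD, n = 3; log2 difference 0.61 ± 0.14 SE; limma, adjusted p = 0.010). Its call held in all 14 alternatives that gave it a value.

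Summed over the 4 genes, TEAD expression was 41.2 ± 2.93 FPKM in controls and 42.0 ± 2.60 FPKM under strain (SD, n = 3), with overlapping groups. The makeup of that sum differed, as the plot of TEAD family composition shows. Tead1 held 61.4%, 61.2% and 61.0% of it in the controls. Under strain it held 55.9%, 55.5% and 37.8%, below every control. Tead3 held 34.1% to 34.9% in controls and 36.7%, 37.8% and 52.6% under strain. Tead2 held 2.97% to 4.07% in controls and 5.31% to 8.48% under strain, and Tead4 0.672% to 0.816% and 1.13% to 1.55%. Strain replicate 3 set much of the size: the mean Tead1 share differed by -11.5 percentage points with it and by -5.49 without it. For Tead3 the difference was 7.78 points with it and 2.66 without it. The shares are given as a description, with no test. The 2 coactivators together stood at 1.95 ± 0.14 times the summed TEAD level in controls and at 1.81 ± 0.04 times under strain (SD, n = 3), with overlapping groups.

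**Figure D2:**
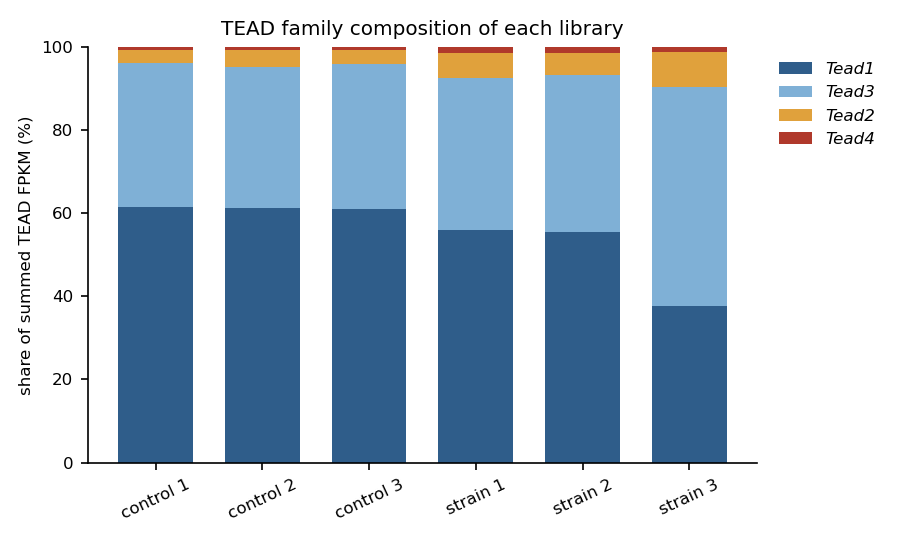
Share of the summed FPKM of Tead1, Tead2, Tead3 and Tead4 (vertical axis, percent) held by each gene in the 6 libraries. Tead1 holds 61.0% to 61.4% in controls and less in each strain library, least in strain replicate 3 (37.8%).

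Ankrd1 encodes an ankyrin-repeat protein of the nucleus and sarcomere that is a widely used YAP/TAZ readout. It was at 0.652, 2.13 and 0.729 FPKM in controls and at 2.63, 3.01 and 5.31 FPKM under strain. The groups did not overlap, but control replicate 2 came close to the lowest strain library, and strain replicate 3 was the highest. It rose 3.12-fold, from 1.17 ± 0.83 to 3.65 ± 1.45 FPKM (SD, n = 3; log2 difference 1.12 ± 0.29 SE; limma, adjusted p = 0.018). That was the largest log2 difference of the 10 genes. It passed the filter mainly through its strain libraries, since 2 of its controls were under 1 FPKM. The call was lost without control replicate 1, control replicate 3 or strain replicate 3 (limma, adjusted p = 0.066, 0.061 and 0.051; 0.0031 to 0.066 over 14 alternatives). Without control replicate 2 the control mean was 0.690 FPKM. Of 14 striated muscle markers, Myh6, Myh7, Myh2, Myh4 and Ckm were listed at 0 in every library and Acta1 alone averaged over 1 FPKM. That list summed to 1.77 to 4.42 FPKM in controls and 1.78 to 4.81 FPKM under strain.

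Ajuba, a LIM-domain protein of cell junctions that holds LATS kinases in an inactive pool under tension, was at 11.8, 14.4 and 13.1 FPKM in controls. It was at 17.4, 17.0 and 19.97 FPKM in strain replicates 1 to 3, all above the controls. It rose 1.38-fold, from 13.1 ± 1.29 to 18.1 ± 1.603 FPKM (SD, n = 3; log2 difference 0.44 ± 0.10 SE; limma, adjusted p = 0.011). The call was lost without control replicate 1 (limma, adjusted p = 0.052; 0.0034 to 0.052 over 15 alternatives).

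Amotl2, an angiomotin family scaffold that binds YAP and is itself induced by it, was at 106, 124 and 109 FPKM in controls. Under strain it was at 139, 129 and 143 FPKM. Every strain library was higher, with control replicate 2 nearest to them. Means were 113 ± 9.13 and 137 ± 7.26 FPKM (SD, n = 3), with a log2 difference of 0.27 ± 0.10 (SE; interval 0.06 to 0.49). This missed the threshold narrowly (limma, adjusted p = 0.052). It passed in 5 of 15 alternatives: the 3 scalings (limma, adjusted p = 0.011, 0.0098 and 0.025), a filter at 5 FPKM (0.049) and without control replicate 2 (0.043).

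Lats2, the LATS kinase gene that YAP/TAZ induce in negative feedback, was at 50.3, 69.0 and 44.2 FPKM in controls. Under strain it was at 36.0, 31.7 and 27.9 FPKM. All strain libraries lay below all controls, and control replicate 2 was the highest of the 6. Lats2 fell 1.71-fold, from 54.5 ± 12.9 to 31.8 ± 4.07 FPKM (SD, n = 3; log2 difference -0.74 ± 0.16 SE; limma, adjusted p = 0.0080). It was called lower in all 15 alternatives (limma, adjusted p = 0.0058 to 0.035).

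Axl, a receptor tyrosine kinase that binds the ligand GAS6, was the most even gene within controls, at 153, 152 and 151 FPKM. Under strain it was at 109, 101 and 95.3 FPKM, with a wide gap between the groups. It fell 1.49-fold, from 152 ± 1.30 to 102 ± 7.14 FPKM (SD, n = 3; log2 difference -0.58 ± 0.09 SE; limma, adjusted p = 0.0014). It was called lower in all 15 alternatives (limma, adjusted p = 0.0012 to 0.010). Axl is also expressed by macrophages, and the 8 macrophage markers summed to 3.22 to 7.79 FPKM in controls and 2.12 to 2.30 FPKM under strain. Of these markers Adgre1 and Cd68 averaged over 1 FPKM, Cd163 was listed at 0 in all 6 libraries, and Ptprc stayed under 0.05 FPKM. Adgre1 (means of 3.71 and 1.31 FPKM) and Cd68 (1.53 and 0.633 FPKM) carried the lower sum, and Csf1r was slightly lower (0.076 and 0.060 FPKM). Ptprc (0.005 and 0.023 FPKM), Mrc1 (0.023 and 0.060), Aif1 (0.037 and 0.077) and Itgam (0.032 and 0.061) averaged higher under strain. The part of macrophage RNA in the fall of Axl was not tested.

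**Figure D3:**
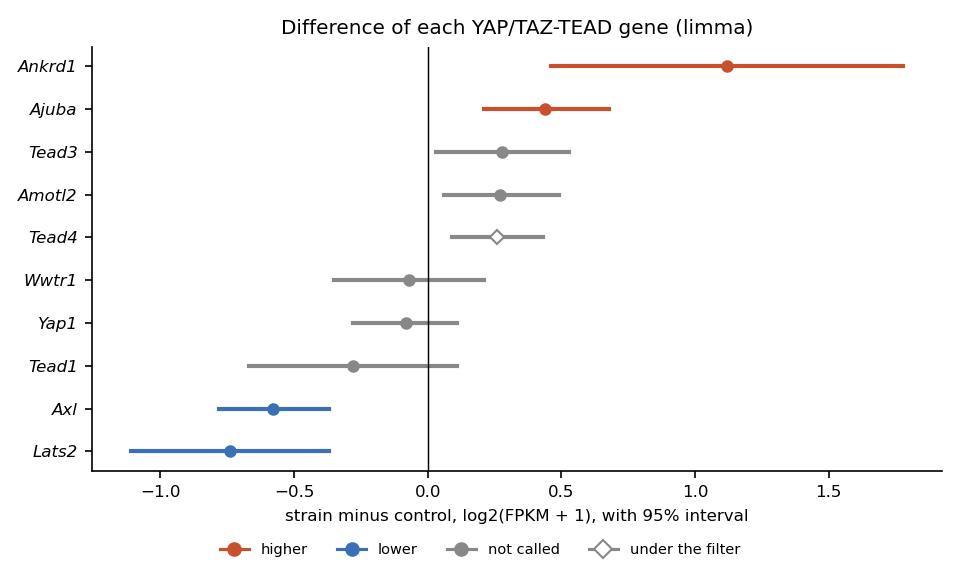
Strain minus control on the log2(FPKM + 1) scale (horizontal axis) for the 10 genes, with limma's 95% interval as the line and the estimate as the point, coloured by call at an adjusted p under 0.05. The open diamond is Tead4, fitted without the filter, and Ankrd1 (1.12) and Lats2 (-0.74) lie at the ends.

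The order of levels changed at the top, and by group means also further down. Lats2 averaged above Yap1 in controls (54.5 and 48.6 FPKM) and below it under strain (31.8 and 45.7 FPKM). Tead3 averaged above Ajuba in controls (14.3 and 13.1 FPKM) and below it under strain (17.6 and 18.1 FPKM). Over the 6 libraries mean FPKM ran from 127 for Axl and 125 for Amotl2 through 47.2 for Yap1, 43.2 for Lats2 and 30.9 for Wwtr1. Tead1 followed at 23.1, Tead3 at 16.0, Ajuba at 15.6, Ankrd1 at 2.41 and Tead4 at 0.446 FPKM. Axl stood above Amotl2 in each control and below it in each strain library, with a ratio of 1.35 ± 0.10 in controls and 0.745 ± 0.069 under strain (SD, n = 3). Among neighbours in this order, Yap1 and Lats2 overlapped in controls but not under strain. Lats2 and Wwtr1, Wwtr1 and Tead1, and Tead1 and Tead3 overlapped under strain but not in controls. Tead3 and Ajuba overlapped in both groups.

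TEAD factors bind the core GGAATG, and AP-1 factors, which often act with them at enhancers, bind TGANTCA. Both were searched on both strands of the 250 bases before the start of each gene in RefSeq's promoter table of the GRCr8 rat build. Of the 10 genes 6 matched an entry: Yap1, Wwtr1, Tead3, Amotl2, Ajuba and Axl. Tead1, Tead4, Ankrd1 and Lats2 had none. GGAATG occurred in 3 of the 6 (Yap1, Amotl2 and Ajuba) and in 12.1% of all 33469 promoters. TGANTCA occurred in none of the 6, so no match of one motif overlapped the other, and in 6.34% of all promoters. The windows of Amotl2 and Ajuba, higher in every strain library, are shown with those of Yap1, which was not called, and of Axl, which fell and held no match. Tead3, also higher in every strain library, and Wwtr1, which was not called, held no match either and are not shown. A link between a match and the direction of change was not tested. The 2 classical CCN targets Ctgf (RefSeq Ccn2) and Cyr61 (RefSeq Ccn1) are added because they are described below. Capitals mark each GGAATG or its reverse complement, and each sequence reads 5′ to 3′ on the gene's strand.
Amotl2 (chr8:112182376-112182625, plus strand): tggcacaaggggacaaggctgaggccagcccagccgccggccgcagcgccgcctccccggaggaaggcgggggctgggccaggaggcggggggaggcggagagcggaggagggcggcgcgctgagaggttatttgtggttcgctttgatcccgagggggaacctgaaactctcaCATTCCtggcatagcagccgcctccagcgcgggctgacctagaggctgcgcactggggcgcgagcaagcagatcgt
Ajuba (chr15:32000043-32000292, minus strand): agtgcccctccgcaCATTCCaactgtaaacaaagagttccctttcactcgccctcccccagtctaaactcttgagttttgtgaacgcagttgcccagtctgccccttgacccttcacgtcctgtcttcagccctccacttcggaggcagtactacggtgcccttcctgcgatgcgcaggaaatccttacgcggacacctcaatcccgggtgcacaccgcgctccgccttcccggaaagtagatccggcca
Yap1 (chr8:13451438-13451687, minus strand): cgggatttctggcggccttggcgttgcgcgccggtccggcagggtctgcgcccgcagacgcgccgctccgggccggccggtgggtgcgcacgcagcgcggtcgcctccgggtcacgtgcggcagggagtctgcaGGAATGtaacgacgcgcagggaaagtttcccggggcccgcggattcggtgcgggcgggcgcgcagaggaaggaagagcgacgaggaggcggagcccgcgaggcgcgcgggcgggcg
Axl (chr1:90424010-90424259, minus strand): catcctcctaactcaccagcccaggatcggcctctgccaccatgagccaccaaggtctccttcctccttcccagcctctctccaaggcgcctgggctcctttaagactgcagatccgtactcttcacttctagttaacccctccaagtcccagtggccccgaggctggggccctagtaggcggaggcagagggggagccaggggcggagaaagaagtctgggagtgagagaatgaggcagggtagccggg
Ctgf (chr1:22624615-22624864, minus strand): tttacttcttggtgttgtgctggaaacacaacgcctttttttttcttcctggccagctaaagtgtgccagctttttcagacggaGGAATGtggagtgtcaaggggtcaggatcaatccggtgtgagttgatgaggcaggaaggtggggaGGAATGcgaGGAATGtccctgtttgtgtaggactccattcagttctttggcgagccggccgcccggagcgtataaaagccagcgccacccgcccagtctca
Cyr61 (chr2:237225690-237225939, minus strand): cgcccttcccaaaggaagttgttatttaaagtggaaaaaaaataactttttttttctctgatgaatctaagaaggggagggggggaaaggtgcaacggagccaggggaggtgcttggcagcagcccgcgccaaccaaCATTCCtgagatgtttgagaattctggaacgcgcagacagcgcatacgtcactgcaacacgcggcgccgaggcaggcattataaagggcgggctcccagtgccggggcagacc
The match began 76 bases before the start in Amotl2, 236 in Ajuba, 116 in Yap1 and 113 in Cyr61. Ctgf held 3 matches, at 166, 101 and 92 bases. A match describes letters in the window and shows no binding, and distal sites were not searched.

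Ctgf and Cyr61 encode the matricellular proteins CCN2 and CCN1. Ctgf was at 774, 1287 and 630 FPKM in controls and at 1237, 1257 and 1396 FPKM under strain. Control replicate 2 reached the strain level, and the other controls lay well below it. The log2 difference was 0.60 ± 0.23 (SE; interval 0.07 to 1.12; limma, adjusted p = 0.073), and 0.89 ± 0.14 without control replicate 2 (limma, adjusted p = 0.0034; 0.0034 to 0.23 over 15 alternatives). Ctgf was also called higher with quantile normalization and with upper-quartile scaling (limma, adjusted p = 0.046 in each). Cyr61 was at 267, 426 and 202 FPKM in controls and at 339, 293 and 357 FPKM under strain, with the highest value in control replicate 2. Its log2 difference was 0.21 ± 0.24 (SE; interval -0.33 to 0.74; limma, adjusted p = 0.53). Without control replicate 2 it was called, at 0.50 (limma, adjusted p = 0.046; 0.046 to 0.91 over 15 alternatives), and without control replicate 3 it was -0.04.

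These belong to a signature of 22 YAP/TAZ target genes compiled across tumour types, to which Ankrd1, Amotl2, Lats2 and Axl also belong. Of its 21 tested genes 6 rose, 4 fell and 11 were not called. That is 28.6% higher and 19.0% lower, beside 16.4% and 19.0% of all tested genes, with a median log2 fold change of 0.15. Ccdc80, a secreted matrix protein gene, rose 2.40-fold, from 441 ± 84.4 to 1057 ± 123 FPKM (SD, n = 3; limma, adjusted p = 0.00040). Tgfb2, which encodes the cytokine TGF-beta 2, rose from 11.0 ± 3.10 to 17.9 ± 1.51 FPKM (limma, adjusted p = 0.013). The forkhead factor gene Foxf2 and the kinase gene Nuak2 both rose by 0.48 on the log2 scale (limma, adjusted p = 0.011 and 0.038). F3, which encodes tissue factor, the initiator of coagulation, fell 2.23-fold, from 621 ± 126 to 279 ± 18.0 FPKM (limma, adjusted p = 0.00054). Fjx1, a secreted relative of the Drosophila four-jointed kinase, fell 1.93-fold (limma, adjusted p = 0.0018). Ccdc80, F3 and Fjx1 were called in all 15 alternatives and Foxf2 in all 14 that gave it a value. Tgfb2 lost its call without control replicate 1 (limma, adjusted p = 0.053). Nuak2 was called in 9 of 15 (limma, adjusted p = 0.015 to 0.12) and lost its call without control replicate 1 or 3, without strain replicate 1 or 3 and without a filter.

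The signature's spread within controls followed control replicate 2, as the map of the signature by library shows. That library held the highest control value for 16 of the 21 signature genes, 76.2%, against 41.6% of all 10180 tested genes. It held it for 7 of the 9 tested YAP/TAZ-TEAD genes. Mean log2(FPKM + 1) of the signature was 4.96, 5.28 and 4.86 in control replicates 1 to 3 and 5.12, 5.09 and 5.15 under strain. The highest library on this mean was thus a control, and the strain libraries lay between it and the other controls.

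**Figure D4:**
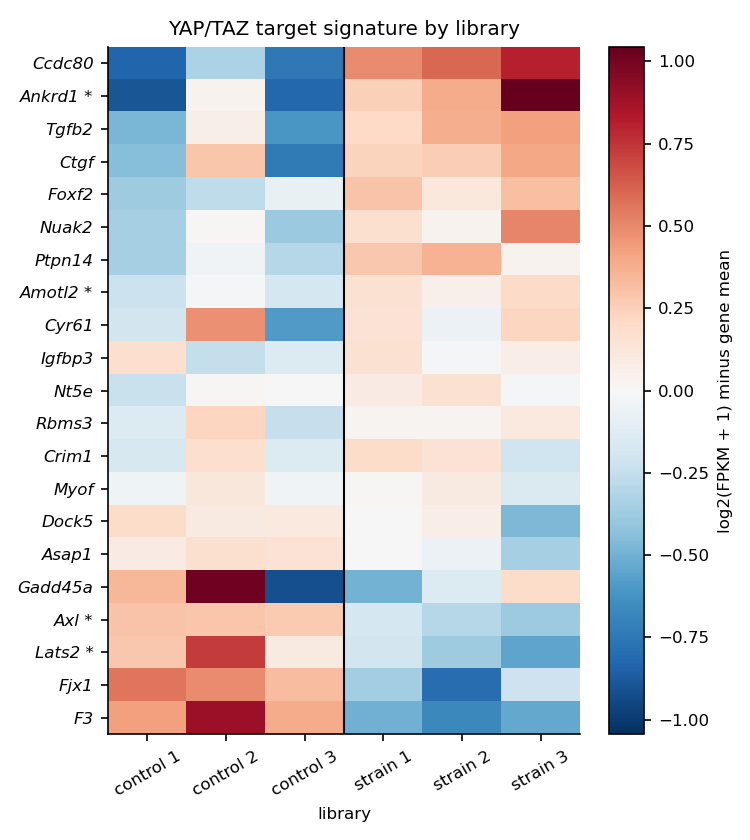
Log2(FPKM + 1) minus the gene's mean over the 6 libraries (colour) for the 21 tested signature genes (rows, ordered by fold change; an asterisk marks Ankrd1, Amotl2, Axl and Lats2) in each library (columns). Control replicate 2 holds the highest control value of 16 genes. By the row order, genes higher under strain stand at the top and genes lower under strain at the bottom.

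Upstream in the pathway, Nf2, Map4k4 and Rassf1 fell and the MST kinase genes were not called. In the kinase core, 1 of 7 tested genes apart from Lats2 was called (14.3%, beside 35.4% of all tested genes): Nf2, which encodes the scaffold merlin, fell from 17.3 ± 1.24 to 12.0 ± 0.56 FPKM (SD, n = 3; limma, adjusted p = 0.0036). The median log2 fold change of these 7 was -0.29, beside -0.01 over all tested genes. The MST kinase genes Stk3 and Stk4 were near level, with log2 differences of 0.00 ± 0.09 and -0.01 ± 0.10 (SE; intervals -0.21 to 0.22 and -0.24 to 0.22). Mob1a, Mob1b and Sav1, outside the rule for named genes, differed by -0.29, -0.70 and 0.06 (limma, adjusted p = 0.057, 0.15 and 0.62). Mob1a and Mob1b were lower in every strain library. Of all tested genes, 51.9% had groups that did not overlap. Lats1, the paralogue of Lats2, was at 11.9, 13.7 and 13.4 FPKM in controls and 10.8, 10.8 and 7.36 FPKM under strain. Its groups did not overlap, and it missed the threshold (log2 difference -0.41 ± 0.14 SE; limma, adjusted p = 0.051). It passed in 3 of 15 alternatives, namely a filter at 5 FPKM and without strain replicate 1 or 2 (limma, adjusted p = 0.048, 0.041 and 0.046).

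Of 19 further tested regulators apart from Ajuba and Amotl2, 5 fell and 1 rose, 26.3% and 5.26%, beside 19.0% and 16.4% of all tested genes. Map4k4, a kinase that can phosphorylate LATS in parallel to MST, fell 1.56-fold, from 59.6 ± 1.21 to 38.2 ± 4.40 FPKM (SD, n = 3; limma, adjusted p = 0.0016). Rassf1, a scaffold of the MST kinases, fell 2.04-fold to 13.4 ± 1.37 FPKM (limma, adjusted p = 0.0015). The protocadherin gene Fat4 was at 6.03, 3.84 and 1.25 FPKM in strain replicates 1 to 3, all below its control mean of 9.97 ± 0.80 FPKM (limma, adjusted p = 0.034). Strn4, a subunit of the STRIPAK phosphatase complex that opposes MST kinases, fell 1.31-fold (limma, adjusted p = 0.043). The fifth fall, Csnk1e, was 1.27-fold (limma, adjusted p = 0.032) and is named although it lay outside the rule for named genes. Ptpn14, a phosphatase that binds YAP and is also in the signature, rose 1.44-fold (limma, adjusted p = 0.021). Nf2, Map4k4 and Rassf1 were called in all 15 alternatives, Ptpn14 in 11, Fat4 in 10, Csnk1e in 9 and Strn4 in 6. Fat4 lost its call without any 1 control, without strain replicate 2 and with a pseudocount of 0.1. Ptpn14 lost it without control replicate 1 or 3 or strain replicate 1 or 2. Csnk1e lost it without those same libraries and with quantile or upper-quartile scaling. Strn4 lost it without any 1 control, strain replicate 1 or strain replicate 2, with quantile or upper-quartile scaling and without a filter.

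Vgll4, a TEAD cofactor that competes with YAP, rose 1.28-fold, from 3.93 ± 0.20 to 5.02 ± 0.43 FPKM (SD, n = 3; limma, adjusted p = 0.049). It was called in 7 of 14 alternatives and was not called without any 1 control, strain replicate 1 or strain replicate 2, or without a filter. Over the 45 tested pathway genes outside the 10, 7 rose and 8 fell, 15.6% and 17.8%, beside 16.4% and 19.0% of all tested genes. The median log2 fold change was -0.01, as over all tested genes. Quantile normalization gave 9 rises and 6 falls, and upper-quartile scaling 8 and 6. Without control replicate 1 the counts were 3 and 5. Over all tested genes the rises and falls were 2138 and 1711 with quantile normalization and 2272 and 1556 with upper-quartile scaling, each of 10180. Without control replicate 1 they were 1060 and 1303 of 10182.

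**Figure D5:**
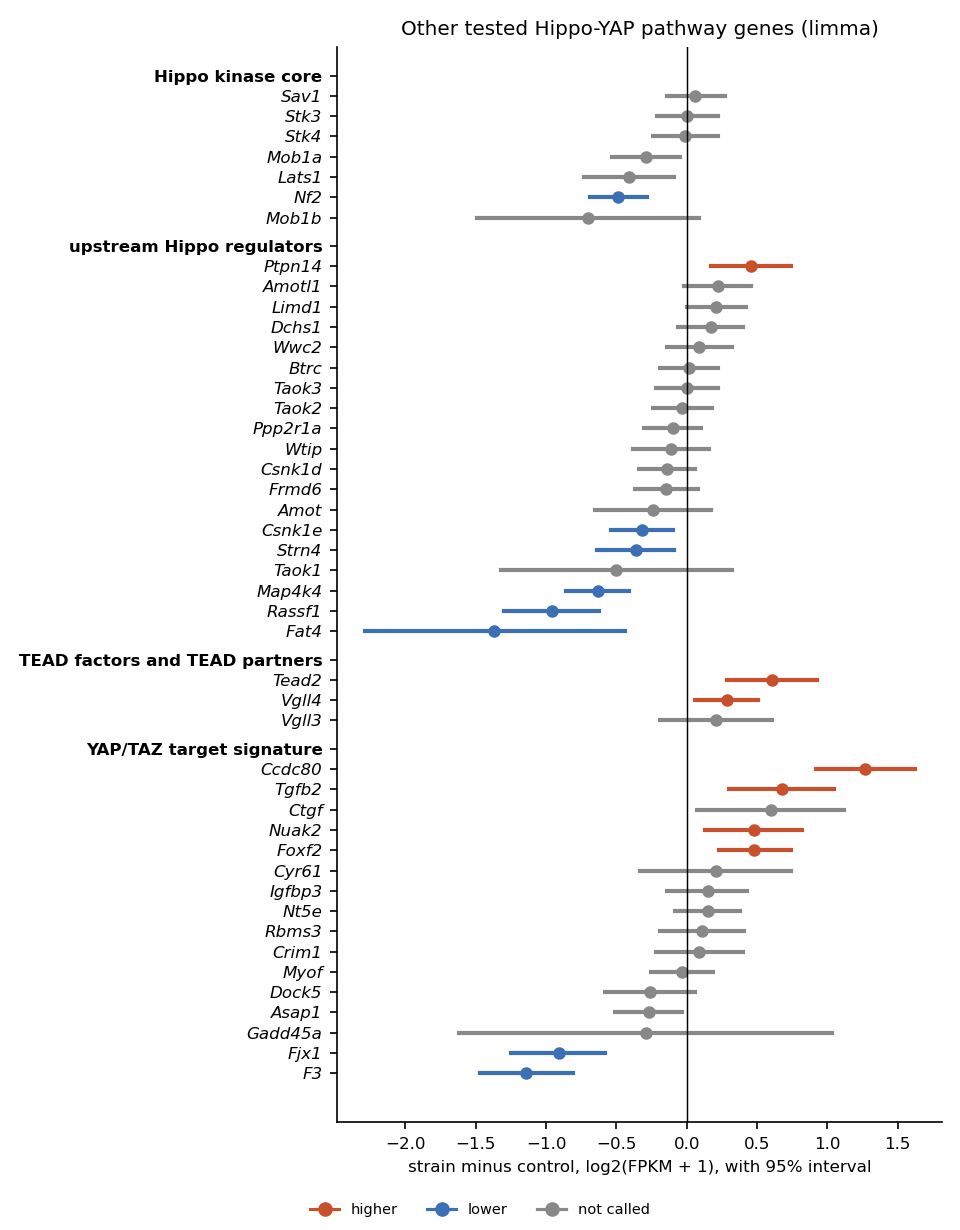
Strain minus control on the log2(FPKM + 1) scale (horizontal axis) for the 45 tested pathway genes outside the 10, by list, with limma's 95% interval as lines and colour by call. Ptpn14 is drawn once, among upstream regulators; Ccdc80 and Fat4 (-1.37) have the largest rise and fall.

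The genes whose pattern over the 6 libraries was closest to 3 of the 10 were found by the root mean square difference of log2(FPKM + 1) after centring each gene. For Yap1 they were Chd4 (0.023), Pus10 (0.024) and Tram1 (0.025), beside a median of 0.20 over all tested genes. For Wwtr1 they were Ndc1 (0.031), Ralgapa1 (0.031) and Rps6ka3 (0.033), beside a median of 0.25. Being chosen for closeness to Wwtr1, they share its low value in strain replicate 3. For Ankrd1 they were Lxn (0.168), Hcfc1r1 (0.183) and Eva1b (0.186), beside a median of 0.69. Lxn was at 12.0, 19.4 and 15.0 FPKM in controls and at 28.3, 32.2 and 42.7 FPKM under strain. These distances are descriptions with no test.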

How the data were processed

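RNA sequencing of 3 control and 3 strain libraries was analysed from the authors' deposited values, 1 per gene symbol and library. The deposited values, which are not whole numbers, were taken as FPKM made by the authors with tools that the submitters' processing notes name without order or role: HISAT2 2.0.4, cutadapt 1.9.3, Cufflinks, Cuffdiff 2.2.1 and DESeq. The one build named there is hg19, although the symbols are rat. Annotation, library scaling and use of strand are not given in the sources used here. In each file 27 rows whose symbols had become dates and 1 row that lacked a separate value in control replicate 1 were left out, of 22601. FPKM values keep no read totals, so no counting interval was computed.

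Genes averaging at least 1 FPKM (10180) were tested on log2(FPKM + 1), a scale that understates changes of low genes, with limma 3.58.1 in R 4.3.3 (mean-variance trend, robust moderation, two-sided, Benjamini-Hochberg over all tested genes, threshold 0.05). The fit was tried on simulated data in which 200 of 10180 genes were changed, by 1 or 2 on the log2 scale. It recovered 85.6% and 98.7% of these, and 4.61% of calls were false. Smaller changes, such as most of those of the 10 genes, were not simulated, nor was a large share of changed genes. The simulation therefore gives no power or error rate for them. Folds are ratios of group mean FPKM. Named genes are the 10 genes, up to 4 called genes per direction and pathway list by size of change, Ctgf, Cyr61, Tead2, Lats1, Stk3, Stk4 and Vgll4, and the 3 closest patterns to Yap1, Wwtr1 and Ankrd1. The 10 genes, 4 pathway lists and 4 marker lists were chosen with earlier results of these data known. Arhgef17 of the signature was not analysed here. The alternatives were 2 pseudocounts (0.1 and 0.5), 2 filters, 3 scalings, limma without trend and robust moderation, a replicate block and leaving out each library.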

Additional observations from a re-analysis of the deposited data

How the results depend on the processing

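With each library left out in turn, the number of the 10 genes called ranged from 2 to 5 (4 with all libraries), that of the other pathway genes from 8 to 17 (15) and that of all genes from 2363 to 3572 (3608); the lowest of each came without control replicate 1. Of 135 refitted differences of the 10 genes, 120 kept both sign and side of the threshold, 4 lost their call, 8 gained one and 3 changed sign: Yap1 to 0.01 with quantile normalization, and Wwtr1 to 0.01 with upper-quartile scaling and to 0.08 without strain replicate 3 (-0.15 to 0.08 over the libraries left out), none of them called. The cause was not tested. Tead4 enters these counts with 1 refit, its fit without a filter set against that same fit, which could not differ. A replicate block gave 4 of the 10 genes, 12 other pathway genes and 3116 genes in all; Strn4, Nuak2 and Vgll4 were not called under it. No label says that a replicate number marks a shared animal, culture or day, so the pairing was not used. Deviations of same-numbered libraries from the group means correlated across genes at 0.0325, 0.108 and -0.116 for replicates 1 to 3. The highest value of any pair was 0.12, for control replicate 1 and strain replicate 3. With 3 libraries per group, these values cannot settle whether libraries were paired. With depth unknown, the counting error of low genes such as Tead4 and Ankrd1 could not be given.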
